A study of Mus musculus with 2 samples.

Results

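Kinesins are motor proteins that use ATP to move along microtubules or to shorten their ends. Neurons rely on them to carry vesicles, mitochondria and cytoskeletal proteins along axons and dendrites, while dividing progenitors use a different set to build the spindle, move chromosomes and complete cytokinesis. The embryonic retina holds both kinds of cell, since late progenitors still divide while ganglion cells extend axons. In such whole tissue, fewer cells of a type and less RNA per cell cannot be told apart.

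The kinesin family was taken as all genes whose symbol is a numbered Kif, Kifc1 to Kifc3 or Klc1 to Klc4, where the array's annotation gave a probe set 1 symbol. This gave 43 of the 18193 genes so named on the array, measured by 109 of 45037 probe sets. Each gene took the value of the probe set with the highest mean of both arrays. Of the 43 genes, 35 had an intensity of at least 18.6 on at least 1 array, the median of all values and the filter used here. Kinesins were sorted by textbook role into 13 mitotic genes, 20 transport genes, 5 genes of the cilium and Hedgehog signalling, and 5 others. Klc2, Kif19a and Kif25 were not analysed here.

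The arrays compared 1 retina of a Sox11-/- embryo with 1 retina of a wild-type littermate, both C57BL/6 and taken at embryonic day 18. Sox11 encodes a SoxC transcription factor of differentiating neurons, and the extent of its deletion is not given in the labels. Each genotype has 1 array, so the differences below carry neither an error nor a test, and they compare 2 hybridisations. Log2 ratios are taken of intensity + 5, knockout over wild type, so that changes of dim genes are understated. Intensities of different probe sets are not compared with each other, because probes differ in how well they bind.

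The Sox11 probe set with the highest wild-type intensity read 252.4 in the knockout and 3205.7 in the wild type, and of the 6 Sox11 probe sets 5 were lower and 1 was higher in the knockout. Of the retinal identity genes listed, 8 were measured and all 8 passed the filter, with a median log2 ratio of -0.06. Xist read 922.7 in the knockout and 12.3 in the wild type, and the Y-linked gene Eif2s3y read 4.7 in the knockout and 214.0 in the wild type, so sex and genotype cannot be told apart. Marker intensities also differed. Summed over the genes measured, 9 mesenchyme markers came to 682.9 in the knockout and 236.3 in the wild type. Pdgfra among them went the other way, at 74.9 in the knockout and 156.2 in the wild type. The 10 macrophage markers came to 740.1 in the knockout and 340.4 in the wild type, the 10 lens markers to 523.4 in the knockout and 369.1 in the wild type, and the 8 pigment epithelium markers to 418.9 in the knockout and 283.6 in the wild type. Of the 8, 8, 7 and 6 genes of these lists past the filter, 6, 1, 4 and 2 passed by 1 array only, so no count of higher genes is given. The 5 rod markers came to 393.4 in the knockout and 979.0 in the wild type. The 7 endothelial markers came to 661.6 in the knockout and 843.6 in the wild type. Most of these endothelial sums was Kdr, at 456.1 in the knockout and 673.2 in the wild type. Only 3 endothelial genes passed the filter, with a median log2 ratio of 0.14. Kdr was lower, Cldn5 was slightly higher (0.14), and Esam was higher but passed by the knockout array only. The 10 ganglion cell markers came to 7943.3 in the knockout and 7168.2 in the wild type. Of the 10, 8 were higher, beside 5510 of all 11553 genes past the filter. Stmn2 (-0.18) and Thy1 (-0.09) were lower. The 7 progenitor markers were nearly level in sum, at 10754.3 in the knockout and 10614.2 in the wild type, with 4 higher and 3 lower. Among them Sfrp2 read 564.9 in the knockout and 327.8 in the wild type (0.78), while Hes5 was lowest at -0.25. Such sums follow their brightest probe sets. The part of these marker differences in the kinesin values was not tested.

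Kinesin transcripts were close to level between the genotypes. Over the 35 genes past the filter the median log2 ratio was -0.09, against -0.01 over all 11553 genes past it. In the knockout 13 kinesins were higher and 22 lower (62.9%), beside 52.1% of all genes lower. Kif17 and Kifc2 passed only through the wild-type array, so they could only count as lower. With the filter on the lower intensity 20 of 33 were lower. With the median over probe sets 17 of 35 were lower, and the median was 0.044. Of the 35 kinesins, 23 lay within 0.2 of 0 by the brightest probe set. No kinesin was at least 1.5-fold higher in the knockout, where 3.81% of all genes were, and 1 was at least 1.5-fold lower, Kifc1, where 2.17% of all genes were. None reached 2-fold in either direction, against 0.961% of all genes higher and 0.407% lower. Just inside and just outside the 1.5-fold limit, a log2 ratio of 0.585 in size, were Kifc1 at -0.59 and Kif17 at -0.58, although the knockout intensity of Kif17 was below the filter, so that its ratio depends on the pseudocount. When genes were sorted into 4 equal bands of level, 1 of the 35 kinesins lay outside the central 95% of its band, Kifc1 at percentile 1.4. That range holds 95% of all genes by construction, so 1 of 35 outside it is no excess.

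**Figure D1:**
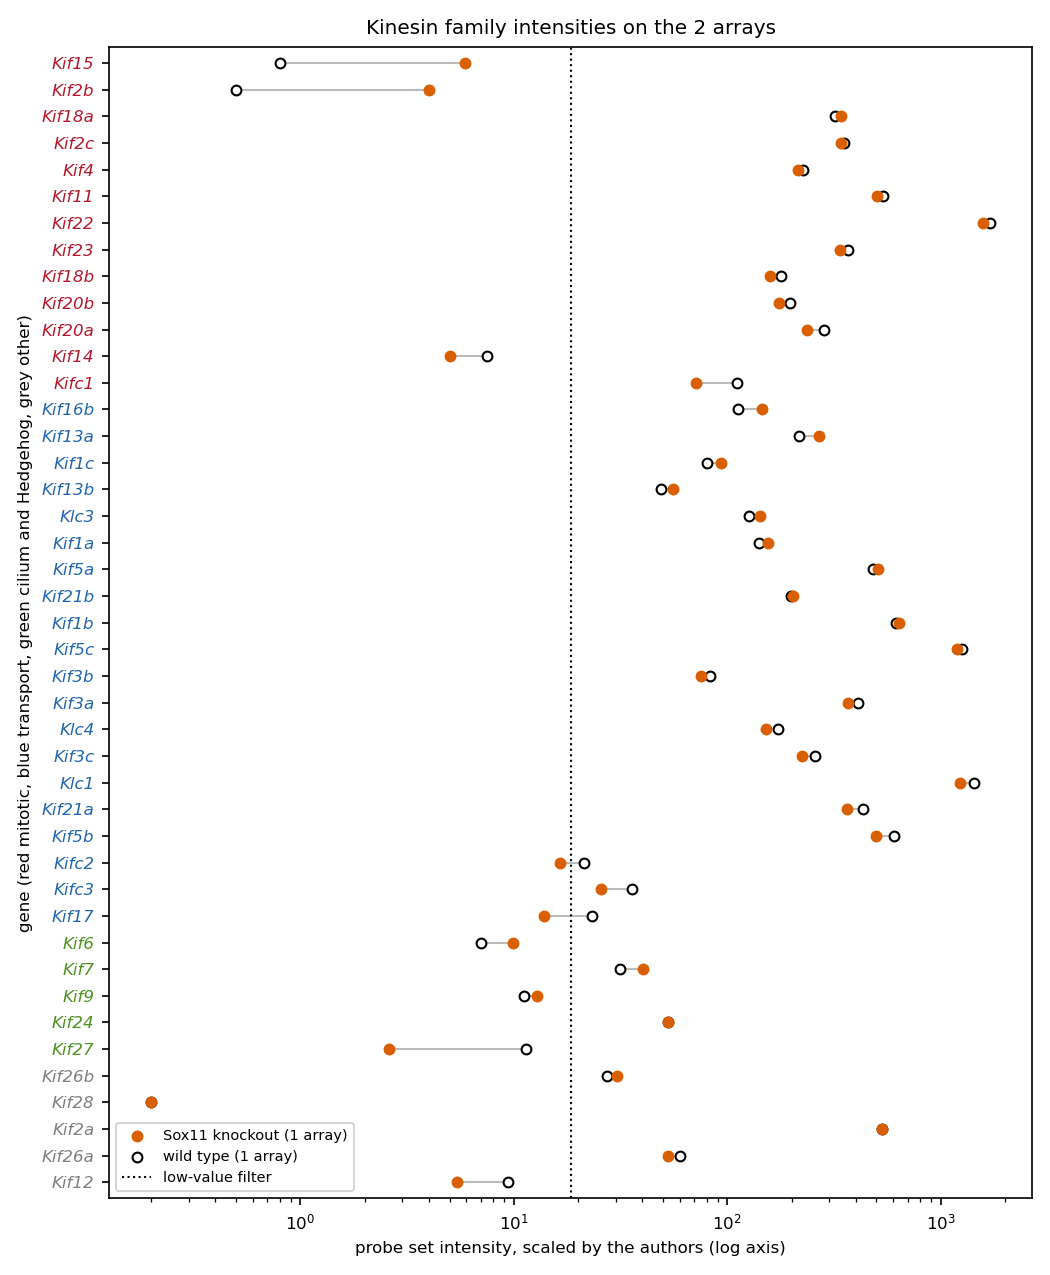
Intensity of each of the 43 kinesin genes (rows, coloured by class) on a log axis, with filled points for the Sox11 knockout array, open points for the wild-type array and a dotted line at the filter of 18.6. The points of most genes past the filter nearly coincide, and Kifc1 at 71.7 in the knockout and 110.7 in the wild type is among the widest pairs.

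The first question was whether kinesins of division and kinesins of axonal transport differed between the genotypes in different ways. By the brightest probe set their medians were alike: the median log2 ratio was -0.11 over 10 mitotic genes and -0.11 over 20 transport genes, a difference of 0.0004. Mitotic genes were lower in 9 of 10, between -0.59 and 0.09, whereas transport genes were lower in 11 of 20, between -0.58 and 0.36. Over all genes 52.1% were lower. Such ranges widen with the number of genes, and Kifc1 and Kif17 alone set their low ends, so the spreads are not compared. The equal medians depended on which genes and probe sets were taken. Kif17, the lowest transport gene, and Kifc2 passed the filter only through the wild-type array; without them the transport median was -0.022 over 18 genes, 9 of them lower, and the difference was -0.092, as it also was with the filter on the lower intensity or at 109.4. When each gene took the median over its probe sets, the mitotic median was -0.10 and the transport median 0.11, a difference of -0.20. A narrower list of neuronal transport kinesins moved the other way. Its median was -0.15 over 12 genes, 8 of them lower, and the difference was 0.034.

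Among the mitotic kinesins, Kifc1 stood furthest apart. It encodes a minus-end-directed kinesin-14 that crosslinks spindle microtubules and focuses the poles. It read 71.7 in the knockout and 110.7 in the wild type, a log2 ratio of -0.59 from 1 probe set, and no second probe set was there to compare. The suffix of that probe set marks possible matches to several transcripts, and near-identical Kifc genes exist in the mouse, so the source of this signal is uncertain.

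The kinesin-6 motors, which bundle the central spindle and serve cytokinesis, were slightly lower. Kif20a read 237.5 in the knockout and 282.4 in the wild type, a log2 ratio of -0.25. Kif20b read 174.4 in the knockout and 197.1 in the wild type (-0.17), but its other probe set past the filter gave 0.08. Kif23, the centralspindlin motor, read 337.0 in the knockout and 365.9 in the wild type (-0.12), while its dimmer probe set gave 0.42. The probe sets of Kif20b and Kif23 therefore disagreed in sign.

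Motors that set up the spindle and move chromosomes were nearly level. Kif11, the kinesin-5 that pushes spindle poles apart, read 503.6 in the knockout and 534.5 in the wild type, a log2 ratio of -0.09, with its 3 probe sets between -0.09 and 0.14. Kif22, a chromokinesin that pushes chromosome arms outward, read 1575.9 in the knockout and 1702.1 in the wild type (-0.11). Kif2c, the kinesin-13 that corrects wrong attachments at centromeres, read 340.0 in the knockout and 351.2 in the wild type (-0.05), and all 3 of its probe sets past the filter were lower, the lowest at -0.21. Several of these values came from probe sets whose suffix marks possible matches to several transcripts, and without such probe sets the mitotic median was -0.06 over 8 genes, 5 of them lower.

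The kinesin-8 motors, which limit microtubule length and dampen chromosome movement, pointed opposite ways. Kif18a read 340.0 in the knockout and 320.1 in the wild type, a log2 ratio of 0.09, and was the only mitotic gene past the filter that was higher. Kif18b read 158.6 in the knockout and 177.7 in the wild type (-0.16). Kif4, the X-linked chromokinesin that shapes the midzone, read 213.8 in the knockout and 226.5 in the wild type (-0.08). It is the only kinesin on the X chromosome here, and without it the mitotic median was -0.12. Kif14, Kif15 and Kif2b were below the filter on both arrays, with intensities of at most 7.5, so no direction is given for them.

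Transcripts of the proteins that mitotic kinesins work with had similar ratios. Of 20 listed partners, 19 were measured and past the filter, with a median log2 ratio of -0.12. Of these 16 were lower, beside 52.1% of all genes. None was 1.5-fold apart, where 3.81% of all genes were higher and 2.17% lower by as much. The lowest was Incenp, the scaffold of the chromosomal passenger complex, at 1524.6 in the knockout and 1870.2 in the wild type (-0.29). Prc1, the microtubule bundler that recruits Kif4 to the midzone, read 546.4 in the knockout and 638.9 in the wild type (-0.22). Racgap1, the partner of Kif23 in centralspindlin, had the highest ratio, with 714.0 in the knockout and 678.3 in the wild type (0.07), followed by the microtubule polymerase Ckap5 at 0.04. Tpx2, which targets Kif15 and Kif11 to the spindle, was level at -0.04. With the median over probe sets, the partner median was -0.03. After loess 12 of the 19 partners were lower, and after quantile normalization 13 were.

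The stretches below are shown so that the promoters of the kinesins compared can be set side by side. They are the 250 bases before the annotated start, 5′ to 3′ on the gene's strand, from RefSeq on build GRCm38.p6. Promoters were found for 35 of the 43 genes. Capitals mark 3 motifs searched on both strands: CCAAT, the box bound by NF-Y; TTTGAA, a form of the cell cycle genes homology region that late cell cycle genes carry near their start; and ACAAAG, a core recognised by Sox proteins. No marked matches overlap in these stretches. Kifc1 is the kinesin past the 1.5-fold limit, Kif11 and Kif23 are mitotic motors near level, and Kif3a and Kif5c carry cargo along axons.
Kifc1 (chr17:33890634-33890883, minus strand): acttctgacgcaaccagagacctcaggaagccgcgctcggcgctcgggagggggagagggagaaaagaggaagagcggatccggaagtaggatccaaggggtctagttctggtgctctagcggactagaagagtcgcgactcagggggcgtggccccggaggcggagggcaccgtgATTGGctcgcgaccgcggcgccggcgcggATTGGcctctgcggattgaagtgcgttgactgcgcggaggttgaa
Kif11 (chr19:37376132-37376381, plus strand): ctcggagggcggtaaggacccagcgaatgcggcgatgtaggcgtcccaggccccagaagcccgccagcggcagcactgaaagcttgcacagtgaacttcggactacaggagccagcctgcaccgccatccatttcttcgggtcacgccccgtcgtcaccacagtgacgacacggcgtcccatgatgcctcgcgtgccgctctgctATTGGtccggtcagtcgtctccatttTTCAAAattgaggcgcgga
Kif23 (chr9:61946800-61947049, minus strand): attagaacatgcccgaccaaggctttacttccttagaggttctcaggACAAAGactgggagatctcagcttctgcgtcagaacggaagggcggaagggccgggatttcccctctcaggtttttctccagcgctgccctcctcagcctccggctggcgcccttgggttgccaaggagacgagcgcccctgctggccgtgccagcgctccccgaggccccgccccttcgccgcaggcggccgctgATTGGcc
Kif3a (chr11:53567119-53567368, plus strand): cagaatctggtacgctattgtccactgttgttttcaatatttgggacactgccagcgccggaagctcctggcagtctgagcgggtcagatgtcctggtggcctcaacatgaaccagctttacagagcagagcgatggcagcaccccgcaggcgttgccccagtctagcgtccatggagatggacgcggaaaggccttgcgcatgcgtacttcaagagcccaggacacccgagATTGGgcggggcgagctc
Kif5c (chr2:49619036-49619285, plus strand): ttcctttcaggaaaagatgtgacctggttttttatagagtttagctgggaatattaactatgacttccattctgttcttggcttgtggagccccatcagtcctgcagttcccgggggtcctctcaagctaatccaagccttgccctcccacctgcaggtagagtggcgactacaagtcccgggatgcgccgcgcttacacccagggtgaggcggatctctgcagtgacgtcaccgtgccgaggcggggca

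In the Kif11 stretch a CCAAT box in reverse lies 45 to 41 bases before the start and a TTTGAA match in reverse 19 to 14 bases before it. Kifc1 holds CCAAT in reverse at 74 to 70 and at 45 to 41 bases before the start, and no TTTGAA. Kif23 holds CCAAT in reverse 7 to 3 bases before the start and ACAAAG 203 to 198 bases before it, Kif3a holds CCAAT in reverse only, and Kif5c holds none of the 3 motifs. Over the 12 mitotic genes with a promoter, 8 held CCAAT (66.7%), 5 held TTTGAA (41.7%) and 4 held ACAAAG (33.3%). Over the 16 windows of 14 transport genes, 6 held CCAAT (37.5%), 1 held TTTGAA (6.25%) and 1 held ACAAAG (6.25%). Among 32851 windows of all genes, the shares were 33.8% for CCAAT, 16.0% for TTTGAA and 16.5% for ACAAAG. These are matches of letters in a window, on sets of few genes.

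Kinesin-1 carries mitochondria, vesicles and neurofilaments away from the cell body, as 2 heavy chains with 2 light chains. By their brightest probe sets, its heavy chains showed no common direction. Of their 11 probe sets past the filter, 6 of them from Kif5b, 9 were higher in the knockout. Over the array, 11326 of 20951 probe sets with 1 symbol were higher. With the median over probe sets all 3 genes were higher. In 63.8% of all genes with several probe sets, the dimmer ones also had a higher median ratio than the brightest. Kif5a, the neuron-specific heavy chain, read 510.2 in the knockout and 480.1 in the wild type, a log2 ratio of 0.09, and its other probe set past the filter gave 0.20. Kif5c, another neuronal heavy chain, read 1188.3 in the knockout and 1263.3 in the wild type (-0.09), while its other probe sets past the filter gave 0.17 and 0.62. Kif5b, the heavy chain found in most cells, read 497.2 in the knockout and 606.6 in the wild type (-0.28). Its other 5 probe sets were all higher in the knockout, between 0.16 and 0.62, and the median over all 6 was 0.24. The brightest Kif5b probe set thus went against every other probe set of its gene.

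The light chains, which bind cargo and hold the motor inactive without it, were also mixed. Klc1, the light chain abundant in neurons, read 1233.8 in the knockout and 1424.7 in the wild type, a log2 ratio of -0.21, with its dimmer probe sets at 0.20 and 0.07. Klc4 read 152.5 in the knockout and 173.3 in the wild type (-0.18), and both its probe sets were lower. Klc3 read 141.8 in the knockout and 125.8 in the wild type (0.17).

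The kinesin-2 motors form the heterotrimer of anterograde transport in cilia and carry vesicles in axons. By their brightest probe sets Kif3a, Kif3b and Kif3c were slightly lower, and Kif17 could only appear lower, given how it passed the filter. Kif3a read 365.9 in the knockout and 408.0 in the wild type, a log2 ratio of -0.16. Its partner Kif3b read 75 in the knockout and 83.2 in the wild type (-0.14). Kif3c, the neuronal alternative to Kif3b, read 224.7 in the knockout and 257.5 in the wild type (-0.19), with both probe sets lower. Kif3a and Kif3b each had 3 of 4 probe sets lower and 1 higher. Kif17, a homodimer that carries glutamate receptors in dendrites, read 13.9 in the knockout and 23.3 in the wild type. Its knockout value was below the filter, so by this probe set it was at least 1.25-fold lower, and it had passed only through its wild-type value. Another Kif17 probe set, below the filter on both arrays, read 12.8 in the knockout and 8.8 in the wild type. Kifap3, the subunit that links Kif3a and Kif3b to cargo, was nearly level at 810.3 in the knockout and 836.8 in the wild type (-0.05). The kinesin-2 median was -0.17 over 4 genes, and -0.16 over the 3 genes that passed the filter on both arrays.

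The kinesin-3 motors, which carry synaptic vesicle precursors, mitochondria and endosomes, were higher throughout. Kif1a, the motor of synaptic vesicle precursors, read 155.9 in the knockout and 140.7 in the wild type, a log2 ratio of 0.14, and its other probe set gave 0.22. Kif1b, whose isoforms carry mitochondria and vesicle precursors, read 636.7 in the knockout and 617.7 in the wild type (0.04), and 6 of its 7 probe sets were higher, up to 0.62. Kif1b was close to level by its brightest probe set and higher by 0.35 at the median of all 7. Kif16b, a motor of early endosomes, read 145.1 in the knockout and 112.0 in the wild type (0.36), the highest ratio of the family, and its other probe set past the filter gave 0.37. Kif13a, a motor of recycling endosomes and Golgi-derived vesicles, read 269.9 in the knockout and 216.8 in the wild type (0.31), with its probe sets between -0.21 and 0.66. Kif1c and Kif13b had log2 ratios of 0.22 and 0.18.

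The median over the 6 kinesin-3 genes was 0.20, and under the 10 alternative settings it lay between 0.13 and 0.23, while that of kinesin-2 lay between -0.20 and -0.15. This split of the transport genes by subfamily was chosen after the values were seen. No kinesin-3 gene and no kinesin-2 gene was 1.5-fold apart on the scale used, where 3.81% of all genes were higher and 2.17% lower by as much.

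**Figure D2:**
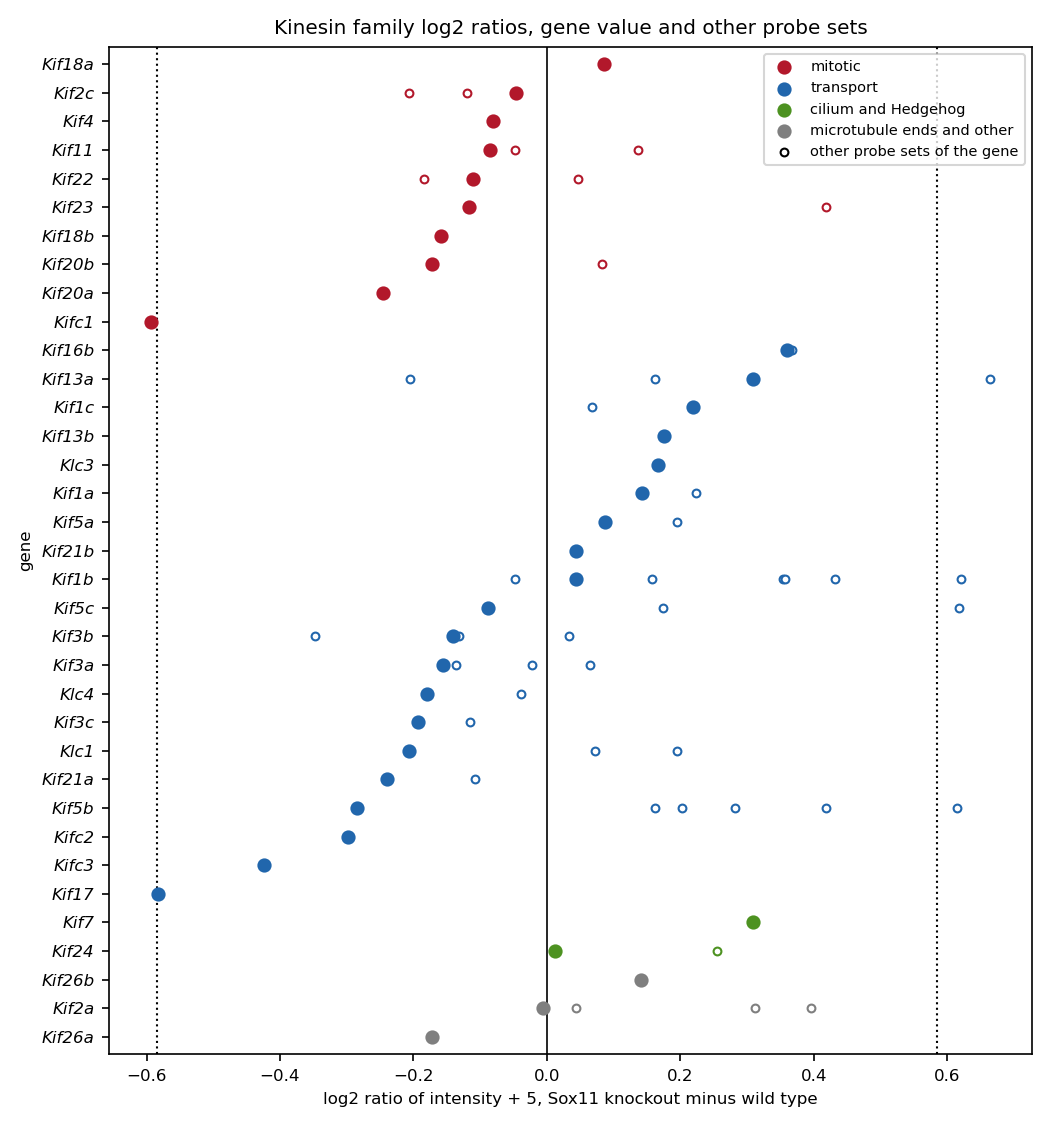
Log2 ratio of intensity + 5, Sox11 knockout minus wild type, for the 35 kinesins past the filter (rows, sorted within class). Filled points are the gene values, open points the other probe sets past the filter, and dotted lines mark 1.5-fold; only Kifc1 among the filled points lies past a dotted line, and the open points of Kif5b, Kif5c, Kif1b and Kif2a lie to the right of their filled points with 1 exception, in Kif1b.

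The other transport motors were dim, nearly level or slightly lower. Kif21a and Kif21b are kinesin-4 motors of axons and dendrites that restrain microtubule growth. Kif21a read 363.7 in the knockout and 430.4 in the wild type, a log2 ratio of -0.24, with both its probe sets past the filter lower, while Kif21b had 0.04. Kifc3, a minus-end motor at cell junctions, read 25.5 in the knockout and 35.9 in the wild type (-0.42). Kifc2, a minus-end motor of neurons, read 16.4 in the knockout and 21.3 in the wild type. Its knockout value was below the filter, so by this probe set it was at least 1.15-fold lower. The other Kifc2 probe set, below the filter on both arrays, was higher in the knockout (0.31). The probe sets of Kifc2 therefore disagreed in sign. Kifc2 and Kif17 were the only kinesins that passed by 1 array only.

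Adaptors and regulators of transport kinesins included 1 of the wider differences. Of 24 listed, 22 were measured and past the filter, with a median log2 ratio of -0.07. Of these 17 were lower, beside 52.1% of all genes. Ppfia3, a liprin scaffold linked to kinesin-3 transport, read 23.1 in the knockout and 50.1 in the wild type (-0.97), and was the only member at least 1.5-fold apart, beside the 2.17% of all genes that were lower by as much. Mapk8ip2, a JIP scaffold that binds kinesin light chains, read 202.6 in the knockout and 270.8 in the wild type (-0.41). The highest were Map7, which recruits kinesin-1 to microtubules, at 0.20, and Fez2 at 0.15. Kifbp, a binding protein that holds several kinesins off microtubules, read 882.9 in the knockout and 982.9 in the wild type (-0.15).

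By their brightest probe sets, genes of dynein and dynactin, the machinery of transport toward the cell body, mostly read slightly lower. Of 20 genes past the filter 14 were lower, beside 52.1% of all genes, and the median log2 ratio was -0.08. None was 1.5-fold apart, where 3.81% of all genes were higher and 2.17% lower by as much. After loess the dynein median was -0.029, beside -0.026 over all genes. When probe sets marked s, x or a were left out it turned to 0.0076, with 8 of 16 genes lower. The median of all genes was then 0.0015. The adaptor Bicd2 was lowest at 362.2 in the knockout and 457.9 in the wild type (-0.33), followed by the intermediate chain Dync1i2 at -0.28. The heavy chain Dync1h1 was highest at 717.2 in the knockout and 604.7 in the wild type (0.24), followed by the light chain Dynlt3 at 0.16. By the brightest probe set, the medians of both sets of partners and of dynein lay between -0.12 and -0.07, beside the -0.09 of all kinesins.

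**Figure D3:**
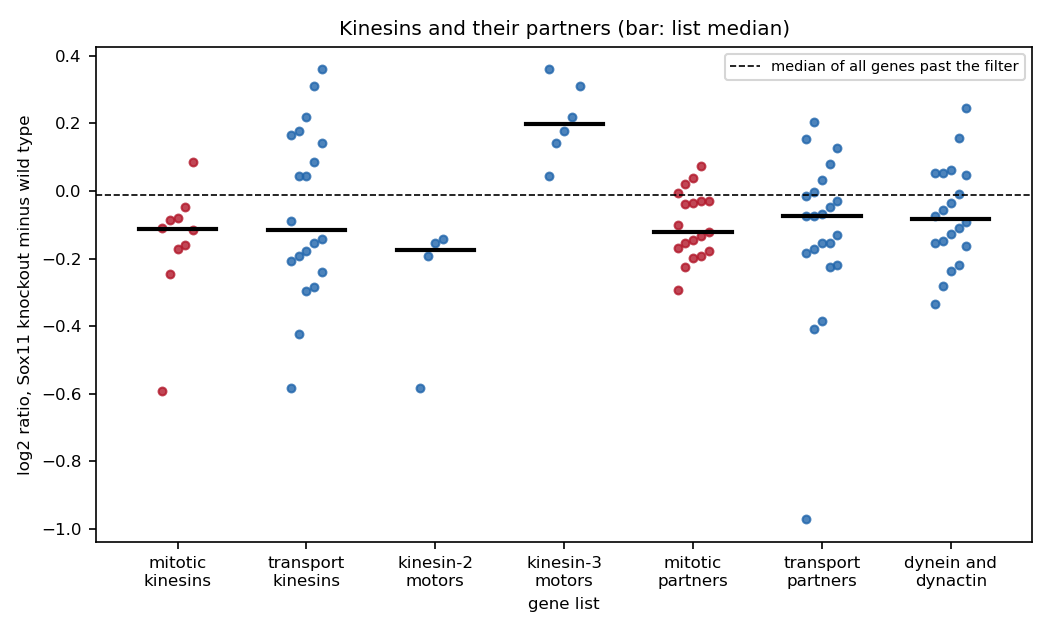
Log2 ratios, Sox11 knockout minus wild type, of the genes past the filter in 7 lists (columns; kinesin-2 and kinesin-3 motors are part of the transport kinesins), with a bar at each list's median and a dashed line at the median of all genes, -0.01. The kinesin-3 motors are the only list whose median, 0.20, lies above the dashed line.

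Kinesins of cilia and Hedgehog signalling were mostly too dim to read. Kif7, which organises the ciliary tip where Gli proteins are processed, read 40.1 in the knockout and 31.4 in the wild type, a log2 ratio of 0.31. Kif24, a centriolar kinesin that restrains cilium formation, was level at 53.0 in the knockout and 52.5 in the wild type. Kif6, Kif9 and Kif27 were below the filter on both arrays, with intensities of at most 12.9.

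The remaining kinesins were level or dim. Kif2a, a kinesin-13 that shortens microtubule ends in spindles and growing axon branches, read 531.2 in the knockout and 533.2 in the wild type, a log2 ratio of -0.01, and its dimmer probe sets past the filter were all higher, up to 0.40. Kif26a and Kif26b, kinesins without ATPase activity that act in signalling, had log2 ratios of -0.17 and 0.14. Kif12 and Kif28 were below the filter on both arrays.

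Probe sets of the same kinesin often disagreed, as did those of other genes, and the dimmer ones mostly had the higher ratio. Past the filter, 21 kinesins had several probe sets, and in 12 of them (57.1%) these differed in sign, against 49.4% of 5612 such genes on the array. The pooled SD between probe sets of a gene was 0.22 for kinesins and 0.26 for all genes, and 11 of the 35 gene values lay further from 0 than that 0.22. The dimmer probe sets had a higher median ratio than the brightest in 18 of the 21 kinesins (85.7%) and in 63.8% of all such genes. The median of the brightest was -0.09 and that of the dimmer ones 0.13 in kinesins, against -0.01 and 0.08 over all genes. Whether kinesins differ from other genes in this was not tested.

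Counted by probe set, kinesins were near the array as a whole. Of 78 kinesin probe sets past the filter, 43 were higher in the knockout, with a median of 0.04, beside 11326 of all 20951 probe sets with 1 symbol, with a median of 0.02. At 1.5-fold, 4 kinesin probe sets were higher, beside 5.01% of all such probe sets, and 1 was lower, beside 2.09%. The 4 belonged to Kif13a, Kif1b, Kif5c and Kif5b, in none of which was it the brightest. Level moved with the ratio across the whole array: over 8 equal bands of level, the median ratio was 0.13 in the dimmest band and -0.07 in the brightest. Of the 35 kinesins, 12 lay in the highest of 4 bands of gene level. Loess was fitted over all these probe sets, before the brightest was taken for each gene. After it the mitotic and transport medians were -0.10 and -0.07, kinesin-2 was at -0.20 and kinesin-3 at 0.14. The median of all genes was then -0.026, beside -0.012 without loess.

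**Figure D4:**
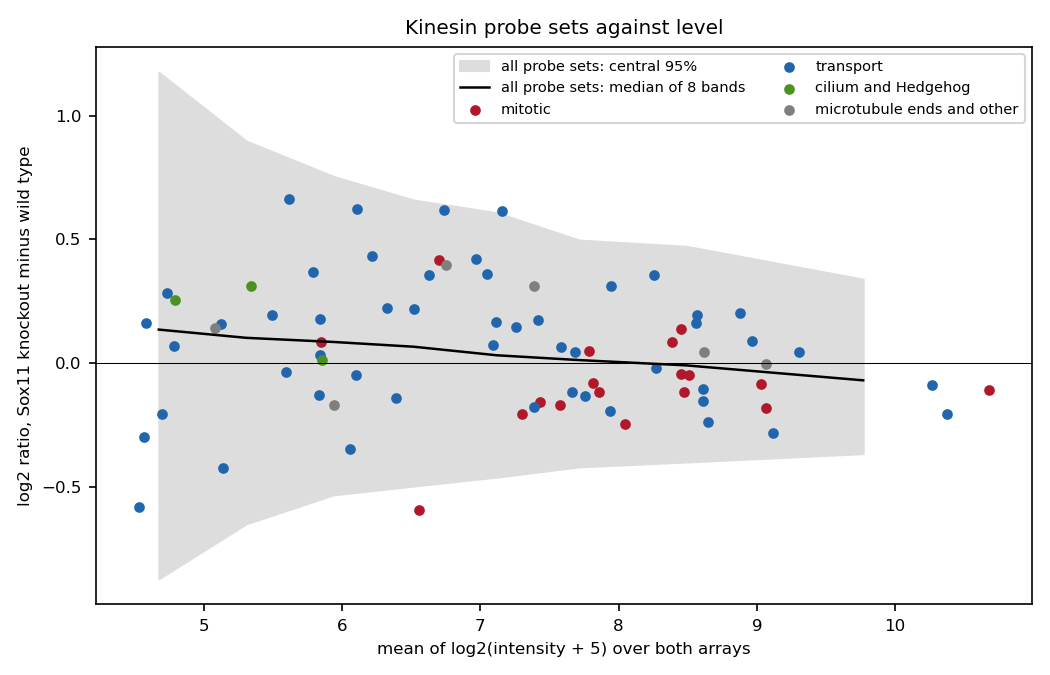
Log2 ratio, Sox11 knockout minus wild type, against mean log2(intensity + 5) for the 78 kinesin probe sets past the filter, coloured by class. The grey area spans the central 95% of all probe sets with 1 symbol and the black line their median in 8 bands, drawn between the middle levels of the dimmest and brightest bands; the line runs from 0.13 in the dimmest band to -0.07 in the brightest, and Kifc1 at -0.59 lies below the grey area.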

How the data were processed

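Retinal RNA of 1 Sox11-/- and 1 wild-type embryo was amplified, transcribed into biotin-labelled cRNA and measured on 1 Affymetrix array each, per the labels' protocols. The deposited intensities are linear, 1 per probe set and array. The software behind them is not given in the sources used here. The values show a common scaling: without 2% of probe sets at each end, the mean was 99.6 on both arrays. The 64 control probe sets were left out.

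Probe sets were named from the platform annotation, and all 43 kinesin symbols matched RefSeq. Values were analysed as log2(intensity + 5) of the deposited intensities, with the pseudocount set at their pooled 25th percentile. The filter and the 1.5-fold limit are descriptive, as no test was possible. A bound divides the brighter intensity by the filter of 18.6, which is not a measured detection limit. Members, classes, partner lists and the naming rule (every member past the filter; the 2 highest and 2 lowest partners of a list and the direct partners) were chosen with earlier results of these data known. Subfamilies were chosen after the values were seen. The procedure was tested on simulated data. Alternatives covered pseudocount, scaling, filter, probe set choice and list membership. The number of arrays limits the precision. Calculations used Python 3.11.15 with pandas 2.3.3, numpy 2.4.6 and statsmodels 0.14.6.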

Additional observations from a re-analysis of the deposited data

How the results depend on the processing

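The mitotic median kept its sign under all 12 alternatives (-0.12 to -0.06), the kinesin-2 median (-0.20 to -0.15), the kinesin-3 median (0.13 to 0.23) and the transport partner median (-0.11 to -0.05) under all 10. With the median over probe sets, the transport median was 0.11, the median of all kinesins 0.044, the mitotic partner median -0.034 and the mitotic minus transport difference -0.20. With the narrower list of 12 neuronal transport genes, the transport median was -0.15 and the difference 0.034. With the filter at the 75th percentile (109.4), with the filter on the lower intensity, and without Kif17 and Kifc2 (added after the data were seen), the transport median was -0.022 and the difference -0.092. Without probe sets marked s, x or a, the median of all kinesins was -0.026 and that of dynein 0.0076, beside 0.0015 over all genes. After loess the dynein median was -0.029, beside -0.026 over all genes. The count of kinesins 1.5-fold lower was 2 with a pseudocount of 1, after quantile normalization, after loess and with no filter, and 0 with the pseudocount at 18.6, after centring and without marked probe sets, where Kifc1 has no value; with no filter, 2 were 1.5-fold higher. Of 212 values of 22 named kinesins under the alternatives, 5 moved by more than the SD between probe sets: Kif1b, Kif23, Kif5b, Kif5c and Klc1, all with the median over probe sets. The causes were not tested. No paired analysis was possible because each genotype has 1 array.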
